A study of Rattus norvegicus with 48 samples.

Results

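Transcripts of 10 antioxidant enzymes were followed in the lungs of rats that had breathed oil vapor or filtered air. They were 3 glutathione peroxidases (Gpx1, Gpx3 and Gpx4), 3 peroxiredoxins (Prdx2, Prdx5 and Prdx6), 3 superoxide dismutases (Sod1, Sod2 and Sod3) and catalase (Cat). They were chosen by symbol, 10 of the 30045 genes in the count tables, and all 10 passed the filter on low counts in every fit. Of these, 3 (Gpx1, Prdx2 and Cat) are also abundant in red blood cells, and they were set beside Alas2, which encodes the erythroid enzyme that starts haem synthesis. The question for these genes was whether their levels followed oil vapor, or how much red cell RNA a piece of lung held.

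Superoxide dismutases turn superoxide into hydrogen peroxide, which catalase, glutathione peroxidases and peroxiredoxins then remove. In the lung these enzymes sit in different places: Sod1 in the cytosol, Sod2 in the mitochondrial matrix, Sod3 and Gpx3 outside cells, and Prdx6 at high levels in airway and alveolar epithelium. Red cells carry oxygen on haem iron, and peroxiredoxin 2, catalase and glutathione peroxidase 1 are the enzymes with which they clear peroxide.

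The animals were 48 male Sprague-Dawley rats of about 200 to 250 g, 1 RNA-seq library of lung each, in 8 groups of 6. Their age was not given in the labels. Rats breathed filtered air or oil vapor at 300 ppm in whole-body chambers for 6 h per day, either on 1 day (single) or on 4 days per week for 4 weeks (repeated, 16 exposure days). Lungs were taken 1 or 28 days later, so each schedule held 4 groups: air at 1 day, oil vapor at 1 day, air at 28 days and oil vapor at 28 days. Levels are in CPM, a gene's counts per 1000000 counts of its library, and are compared between animals and not between genes. Differences are log2 values with their standard error (SE) from edgeR's quasi-likelihood test, and a gene was called at a Benjamini-Hochberg adjusted p below 0.05 over all genes tested. In a piece of tissue, fewer cells of a type and less RNA per cell cannot be told apart.

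Library totals ran from 1.54 to 7.16 M counts, and 2 libraries stood apart. Animal 43 (repeated oil vapor, 1 day) was the shallowest, with the next at 3.60 M, and 5.03% of its counts fell in 22 measured erythroid genes, against a median of 0.337% over all libraries. Its scaling factor from TMM, the normalization used in the fits, was 0.714. CPM of this animal, given on the library total, are therefore higher on the TMM scale. Its 15 alveolar epithelial markers summed to 8380 CPM, whereas the median library held 19665 CPM. Animal 44 of the same group was lower too, at 12781 CPM, and animal 5 (single oil vapor, 1 day) had the second largest erythroid share, 1.63%. Alas2 counts also ran in step between the schedules. When animals of matching groups were set side by side by the rank of their number, a pairing of different animals made after the data were seen, the larger Alas2 count was within 1.2 times the smaller in 23 of 24 pairs, although Alas2 counts ran from 402 to 30019. The same held for Prdx2 in 21 pairs, Cat in 19 and Gpx1 in 18, for the other members in 10 to 14 (12 for Prdx6 and 10 for Gpx3), and for the library total in 16. Animals 5 and 43, for example, had 5891 and 6261 counts of Prdx2 but 1536 and 288 of Prdx6. The slopes of the members on Alas2 are therefore also given within each schedule. Most differences of the members that rest on animals 5, 43 or 44 are also given without them. The correlations were computed over both schedules together only. The p values of fits over 48 libraries treat all animals as independent.

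**Figure D1:**
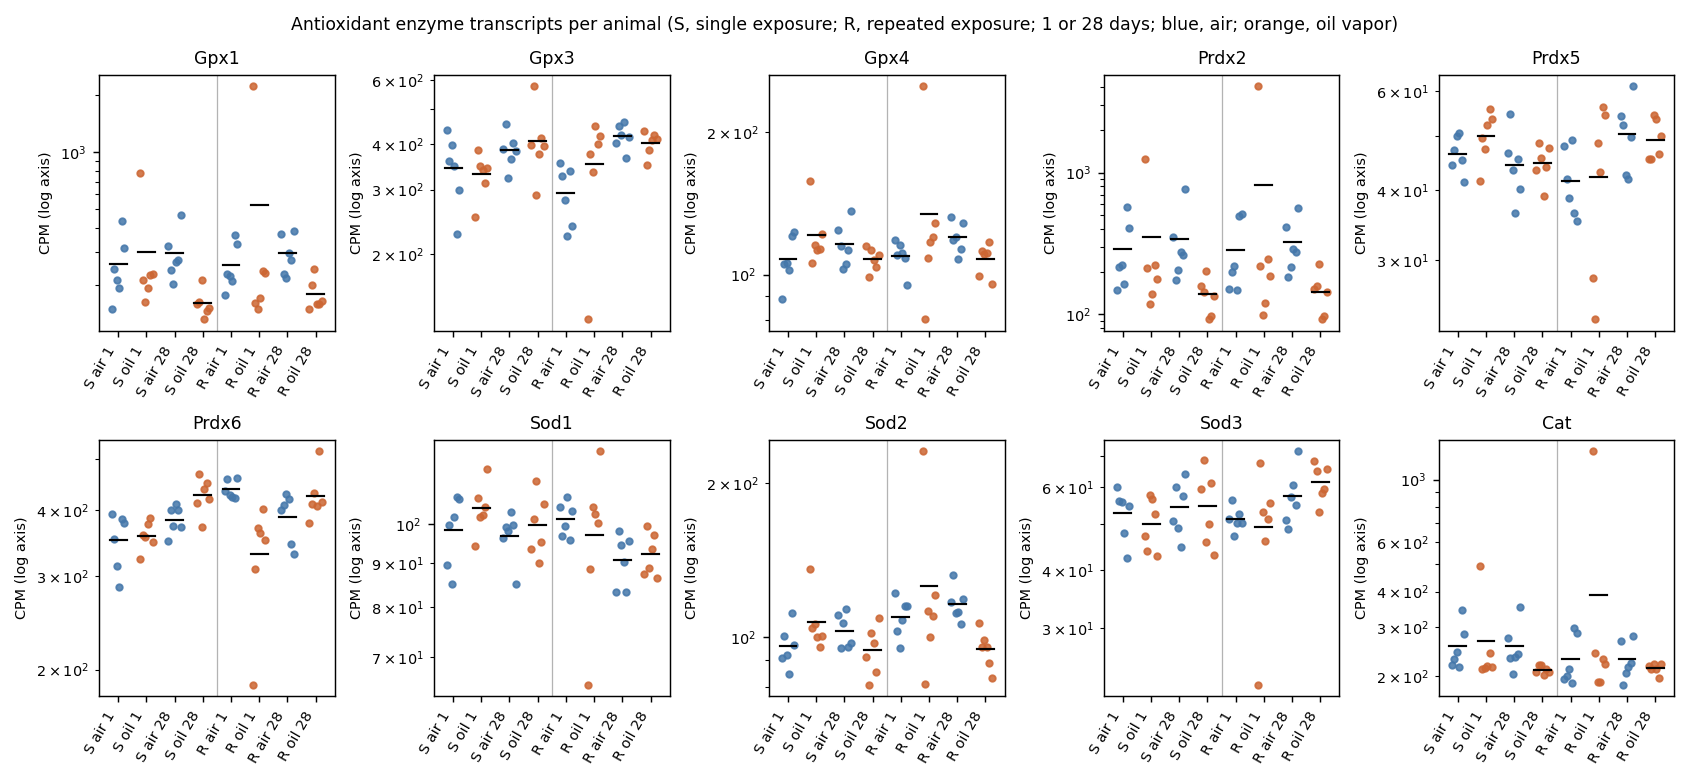
Level of each of the 10 transcripts in every animal (CPM, log axis), by schedule, treatment and days after the last exposure; points are animals (blue air, orange oil vapor) and bars are group means, n = 6 each. Prdx2, Gpx1 and Cat reach 4073, 2222 and 1259 CPM in animal 43, far above all others in its group, while Sod1 and Prdx5 stay within a narrow band.

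The members differed in how widely they varied between animals. The ratio of the highest to the lowest library was 44.2 for Prdx2, 16.8 for Gpx1 and 6.74 for Cat, and between 1.87 and 4.37 for the other 7. Prdx2 levels ran from 92.2 to 4073 CPM, Gpx1 levels from 132 to 2222 CPM and Cat levels from 187 to 1259 CPM. The wide range of Cat rested on animals 43 (1259 CPM) and 5 (494 CPM), as no other library exceeded 353 CPM. Alas2 itself ran from 71.7 to 19529 CPM. The group means show the same contrast: Prdx2 means lay between 138 and 823 CPM and Gpx1 means between 161 and 529 CPM, whereas Sod1 means lay between 90.8 and 104 CPM and Prdx5 means between 41.6 and 50.3 CPM. When the 8 groups were ordered by mean, nearly every pair of neighbours lay within the larger of their SDs. The exceptions were 1 step for Gpx1, from 179 ± 35.9 CPM in repeated oil vapor at 28 days to 256 ± 74.5 CPM in repeated air at 1 day (SD, n = 6), and 1 step for Prdx6, from 358 CPM in single oil vapor at 1 day to 384 ± 23.3 CPM in single air at 28 days.

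Of the members, the transcripts most tied to Alas2 are those of Prdx2, Gpx1 and Cat. Their start regions are shown with that of Alas2 because these 4 moved together across animals. The windows are from RefSeq (GRCr8), 250 bases before to 50 after the start site, each written 5′ to 3′ on the strand of its gene, with a motif match in capitals. This build differs from that of the counts, Rnor_6.0, so the coordinates belong to the windows only. They lie at chr19:40090933-40091232 on the minus strand (Prdx2), chr8:117905212-117905511 on the plus strand (Gpx1), chr3:110329477-110329776 on the minus strand (Cat) and chrX:22895200-22895499 on the plus strand (Alas2).
Prdx2: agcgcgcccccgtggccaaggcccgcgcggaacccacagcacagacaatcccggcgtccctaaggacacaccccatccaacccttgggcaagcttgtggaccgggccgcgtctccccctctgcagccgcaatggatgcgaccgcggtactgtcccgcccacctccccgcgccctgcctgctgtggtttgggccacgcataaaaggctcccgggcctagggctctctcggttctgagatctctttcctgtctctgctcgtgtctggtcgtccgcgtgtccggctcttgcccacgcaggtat
Gpx1: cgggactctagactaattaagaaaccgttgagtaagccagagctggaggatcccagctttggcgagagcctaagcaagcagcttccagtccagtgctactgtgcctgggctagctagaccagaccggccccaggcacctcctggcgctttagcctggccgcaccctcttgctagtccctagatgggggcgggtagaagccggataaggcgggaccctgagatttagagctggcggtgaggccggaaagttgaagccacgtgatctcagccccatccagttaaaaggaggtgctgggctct
Cat: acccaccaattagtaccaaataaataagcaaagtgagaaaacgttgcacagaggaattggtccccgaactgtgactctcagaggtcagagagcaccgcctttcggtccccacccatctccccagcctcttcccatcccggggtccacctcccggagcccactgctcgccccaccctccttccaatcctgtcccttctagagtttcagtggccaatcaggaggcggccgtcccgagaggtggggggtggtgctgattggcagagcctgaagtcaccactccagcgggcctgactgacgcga
Alas2: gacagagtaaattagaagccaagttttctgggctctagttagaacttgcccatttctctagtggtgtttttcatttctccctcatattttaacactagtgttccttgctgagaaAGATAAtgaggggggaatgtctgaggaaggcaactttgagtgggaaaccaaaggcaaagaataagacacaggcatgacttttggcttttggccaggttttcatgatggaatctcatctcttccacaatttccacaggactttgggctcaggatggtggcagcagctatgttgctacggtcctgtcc
The motifs searched, on both strands, were AGATAA and TGATAA (forms of a GATA factor site that share GATAA), CCACACCC (an erythroid Klf1 site) and TGACNNNGC (an antioxidant response element). Other forms of a GATA factor site were not searched. Windows were found for 8 members and Alas2. Alas2 held AGATAA, which 11.3% of 27457 rat windows of this length hold, starting 136 bases before the start site. The Prdx2, Gpx1 and Cat windows held none of the 4 letter strings in these 300 bases. The Gpx1 window did hold GATAA, but after a G, so it matched neither AGATAA nor TGATAA. Of the others, Prdx5 and Sod2 each held TGACNNNGC, as did 12.2% of all windows, while TGATAA (8.89% of windows) and CCACACCC (3.23%) were in none. A match is a run of letters and not a site shown to be used.

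Within groups, the levels of Prdx2, Gpx1 and Cat followed Alas2. The slope of each transcript on Alas2, in log2 units per doubling of Alas2 within the 8 groups over 48 libraries, was 0.70 for Prdx2 (SE 0.03, adjusted p = 1.75e-24), 0.48 for Gpx1 (SE 0.03, adjusted p = 2.63e-17) and 0.31 for Cat (SE 0.03, adjusted p = 4.35e-13). By size of slope, Prdx2 ranked 72, Gpx1 157 and Cat 280 of 15321 genes. In all, 5 of the 10 members were called with a positive slope, where 9.73% of all genes were, and 1 with a negative slope, where 2.96% were. Gpx4, which reduces lipid peroxides in membranes, had a slope of 0.13 (SE 0.02, adjusted p = 5.28e-06), and Sod2 had 0.12 (SE 0.02, adjusted p = 2.72e-05). Gpx3, the secreted plasma peroxidase, had a slope of -0.08 (SE 0.03, adjusted p = 0.0307). Sod1, Sod3, Prdx5 and Prdx6 had slopes between -0.03 and -0.00 that did not pass, each with an SE of at most 0.02.

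Of these 6 slopes, 3 rested on the richest libraries. Without animal 43, only Prdx2, Gpx1 and Cat were called positive, and 3.23% of all genes were. Without animals 5 and 43 their slopes were 0.55, 0.29 and 0.15, with 2.21% of all genes called positive. When the animal with the most Alas2 was left out of each group, 40 libraries gave 0.47 for Prdx2 (SE 0.03), 0.22 for Gpx1 (SE 0.03) and 0.11 for Cat (SE 0.02), all 3 still called among 1.34% of genes. Gpx4, Sod2 and Gpx3 then had slopes of 0.01, -0.00 and -0.01. The single-exposure libraries alone gave Prdx2 0.65, Gpx1 0.40, Gpx4 0.10 and Cat 0.21 as called (3.19% of genes), and the repeated-exposure libraries alone gave Prdx2 0.73, Gpx1 0.51, Cat 0.37, Gpx4 0.15 and Sod2 0.15 (10.5% of genes). The slope of Gpx3 passed in neither schedule alone (adjusted p = 0.336 and 0.110), nor without animal 5 (adjusted p = 0.0695), 9 (0.0508) or 43 (0.620).

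**Figure D2:**
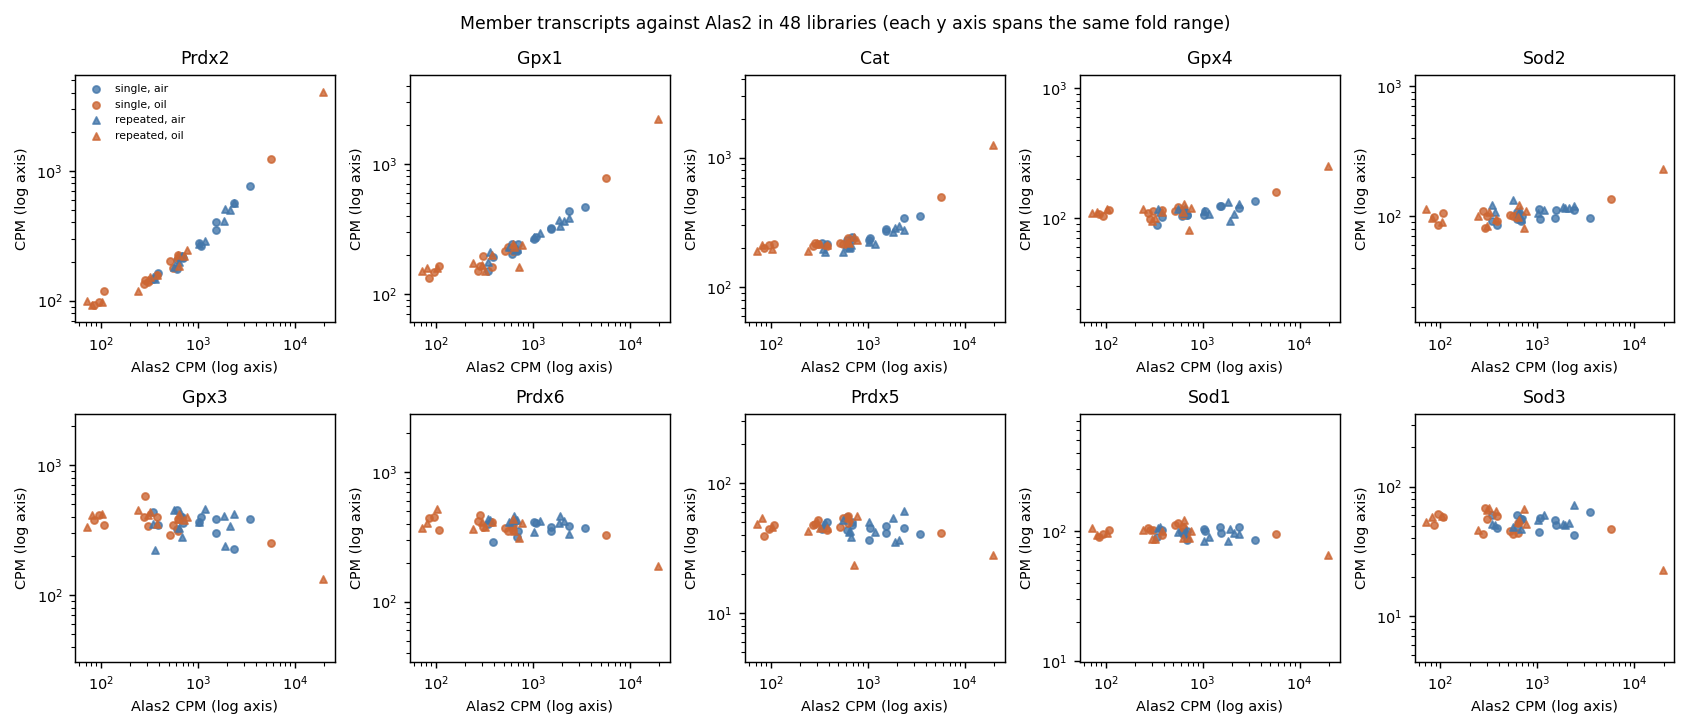
Each member's level against Alas2 in 48 libraries (CPM, both axes log, every vertical axis spanning the same fold range); circles are single and triangles repeated exposure, blue air and orange oil vapor. Prdx2, Gpx1 and Cat climb with Alas2 and flatten where Alas2 is low, whereas Sod1, Sod3, Prdx5 and Prdx6 run level apart from the rightmost library, animal 43.

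The gains in these transcripts were also set against the gain in Alas2. In each group the animal with the most Alas2 was compared with the median of the other 5, and in 6 of the 8 groups its Alas2 excess was above 1000 CPM. In those 6 groups the library gained 20.3 to 21.5 CPM of Prdx2, 8.43 to 13.1 CPM of Gpx1 and 4.53 to 6.77 CPM of Cat per 100 CPM of extra Alas2. In the other 2 groups, both of oil vapor at 28 days, the extra Alas2 was small, and the gains per 100 CPM were, after the single and the repeated exposure in turn, 27.6 and 25.5 CPM of Prdx2, 25.6 and 26.0 CPM of Gpx1, and 4.65 and 2.85 CPM of Cat. Of these, only the 4.65 of Cat lay within the ranges above. Animal 43 gained 20.6 CPM of Prdx2, 10.9 of Gpx1 and 5.50 of Cat, and animal 5 gained 20.7, 10.9 and 5.42. Their Alas2 levels were 19529 and 5699 CPM, from 30019 and 27026 counts in libraries of 1.54 and 4.74 M. By the rank of their number, the richest animals of the 6 groups above are pairs: 5 with 43, 9 with 39 and 23 with 88. Alas2 counts run in step between such pairs, so the gains of matching groups are not separate evidence. Animal 23, in single air at 28 days, gained 20.9 CPM of Prdx2 at 3445 CPM of Alas2. What set these gains was not tested. Gpx4 gained from -0.17 to 0.99 CPM and Sod2 from -0.38 to 1.16 CPM over the same groups, so their sign was not constant. Prdx6 was lower in the richest animal in 5 of the 6 groups, with -5.76 to 1.90 CPM per 100 CPM of Alas2.

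**Figure D3:**
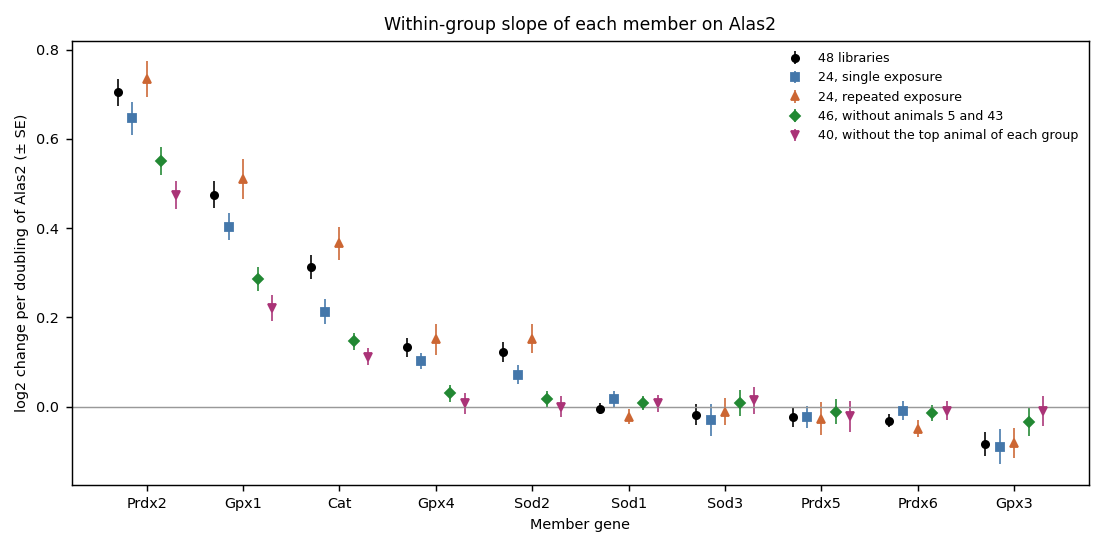
Slope of each member on Alas2 within groups (log2 change per doubling of Alas2, bars ± SE), for all libraries, each schedule alone, and without the richest animals. Prdx2, Gpx1 and Cat stay above 0 in every set, from 0.70, 0.48 and 0.31 in all libraries to 0.47, 0.22 and 0.11 without the richest animal of each group, while Gpx4 and Sod2 drop to 0.01 and -0.00.

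Other lists moved with Alas2 as well, which gives the slopes their setting. All 18 tested erythroid genes besides Alas2 had positive slopes that passed, from 0.18 for Hba1 and 0.56 for Hbb, the globins of haemoglobin, to 1.03 for Hemgn. Globin reads may be split between near-identical copies. Of the other erythroid genes, Bpgm (0.73), which makes the red cell regulator of oxygen release, and Fech (0.75), which inserts iron into haem, had slopes close to that of Prdx2. Positive slopes were also called for 7 of 7 platelet genes, 6 of 9 neutrophil genes and 1 of 9 alveolar macrophage genes, and negative ones for 5 of 15 alveolar epithelial genes. The median slope was 0.69 for the platelet genes, 0.18 for the neutrophil genes and 0.91 for the erythroid genes. Platelet genes thus had slopes as steep as that of Prdx2 (0.70), so such a slope is not particular to red cell genes. Of all genes, 9.73% were called positive and 2.96% negative, so the macrophage count is near the share of all genes. Without animal 43 the positive share of all genes was 3.23%, and the list slopes were not computed without it. No club cell (of 7), heart muscle (of 12), liver (of 14) or proximal kidney tubule gene (of 2) was called by edgeR. Their part in the slopes of the members was not tested. Among 23 other genes of the glutathione and thioredoxin systems, 7 were called positive and 1 negative, with a median slope of 0.00 against -0.00 for all genes. The steepest were Glrx5 (0.78), a mitochondrial glutaredoxin of iron-sulfur cluster assembly, and Gclm (0.47), the modifier subunit of the first enzyme of glutathione synthesis. Nqo1, a quinone reductase, was the negative one, at -0.06. Of 8 tested partners of the member enzymes, 1 was called, the copper chaperone Atox1 at 0.14, again near the share of all genes. Ccs, which loads copper into Sod1, had 0.02 (adjusted p = 0.795).

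The genes whose pattern was most like each member, by Pearson correlation of log2 CPM centred within groups over 48 libraries and 15283 genes, are a description of libraries that share red cell content and depth. For Prdx2 they were Car2 (0.995), a carbonic anhydrase gene, Slc25a39 (0.994) and Glrx5 (0.993). Gpx1 was closest to Adipor1 (0.989), Ypel5 and E2f2, and Cat to Dennd4a (0.987), Usp15 and Gda. Without animals 5 and 43 the nearest genes of these 3 members still correlated at 0.988, 0.966 and 0.953. Gpx4 was closest to Maf1 (0.950) and Sod2 to Rpl4 (0.938), a ribosomal protein gene, and these values were 0.850 and 0.790 without both animals. The extracellular enzymes had other neighbours: Sod3 was closest to Prelp (0.802), a matrix proteoglycan gene, and Gpx3 to App (0.799). The values were lower for Prdx5 with Psmd2 (0.790), Sod1 with Alyref (0.649) and Prdx6 with Ccl21 (0.641).

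Oil vapor was then compared with air within each schedule and time. No member was called in any of the 4 comparisons by edgeR's quasi-likelihood test. At 1 day after the single exposure 0% of all genes were called, with 1494 of 14820 at an unadjusted p below 0.05 and 19 (0.148%) called by DESeq2, none of them a member. At 28 days after it 0% were called, with 1217 at an unadjusted p below 0.05 and 24 (0.162%) by DESeq2, again no member. At 1 day after the repeated exposure 0.00666% were called (1 of 15005 genes), with 1394 at an unadjusted p below 0.05 and 90 by DESeq2, of which Prdx6 was one. At 28 days after it 0% were called, with 729 at an unadjusted p below 0.05 and 21 (0.142%) by DESeq2, no member among them. DESeq2 gave Gpx1, Prdx2 and Cat no adjusted p in the repeated schedule.

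Prdx6, whose product reduces phospholipid hydroperoxides and helps turn over surfactant lipid, was the member with the smallest p. In the repeated schedule at 1 day, the lowest, median and highest levels were 422, 431 and 460 CPM in air and 187, 357 and 402 CPM in oil vapor. The highest oil vapor animal was thus below the lowest air animal, a pattern that 0.64% of genes showed in this direction. On the TMM scale the group means were 429 ± 18.4 CPM in air and 338 ± 45.3 CPM in oil vapor (SD, n = 6). The log2 difference was -0.34 (SE 0.09), rank 40 of 15005 genes by p, and it did not pass (edgeR adjusted p = 0.173). Over the other settings the adjusted p ranged from 0.0207 with DESeq2, which called it at -0.33 together with 0.61% of genes, to 0.454 with only the 12 libraries compared. Without animal 43 the difference was -0.28 (adjusted p = 0.0842), and without animals 43 and 44 it was -0.24 (adjusted p = 0.133). The 15 alveolar epithelial markers summed to 17477 to 21570 CPM in air and 8380 to 20448 CPM in oil vapor, with medians of 19274 and 18288 CPM. Animals 43 (8380 CPM) and 44 (12781 CPM) lay below the air range. The other oil vapor animals, at 18235 to 20448 CPM, lay within it. The 7 club cell markers summed to 2215 to 3349 CPM in air and 1708 to 4455 CPM in oil vapor. Their part in the Prdx6 difference was not tested. After the single exposure at 1 day the difference in Prdx6 was 0.03 (SE 0.07), and the schedules' differences were -0.37 apart (SE 0.11, adjusted p = 0.207). At 28 days the sign was the other way, without passing. Prdx6 was 0.13 higher in oil vapor after the single exposure (SE 0.07, adjusted p = 0.655), with 5 of 6 exposed rats above the air range. After the repeated exposure it was 0.12 higher (SE 0.08, adjusted p = 0.980), with 2 of 6 above that range.

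**Figure D4:**
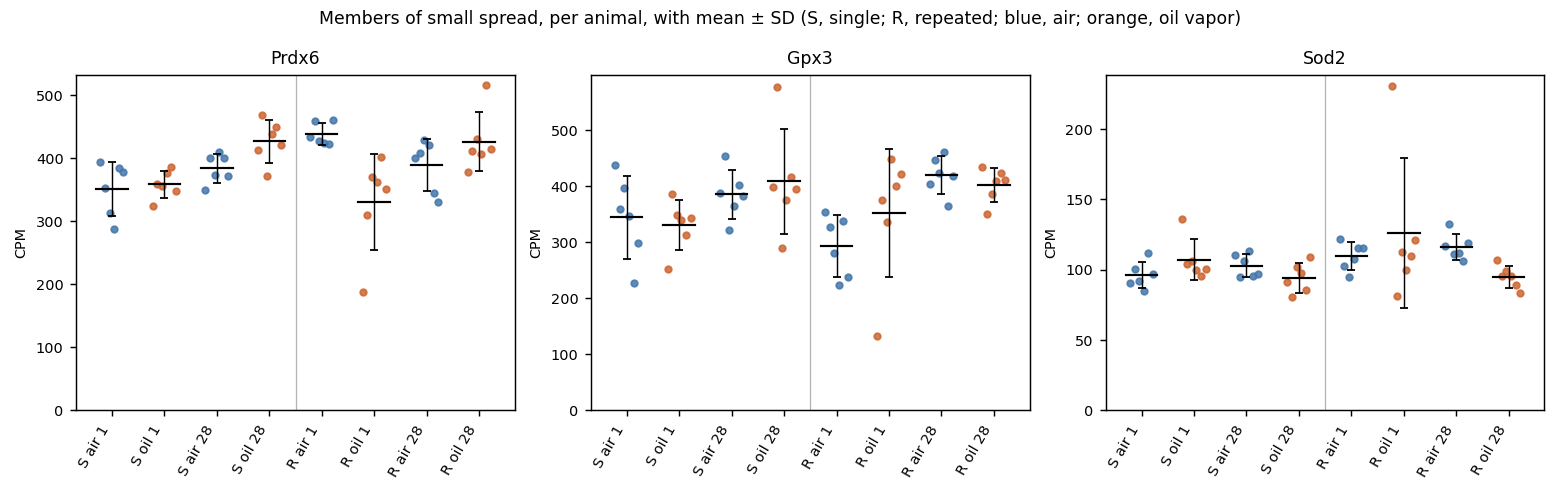
Prdx6, Gpx3 and Sod2 in every animal (CPM, axes from 0), with group mean ± SD (n = 6; blue air, orange oil vapor). Prdx6 in repeated oil vapor at 1 day (187 to 402 CPM) lies below all repeated air animals of that day (422 to 460 CPM), and Gpx3 in repeated air lies between 223 and 354 CPM at 1 day and between 365 and 461 CPM at 28 days.

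Gpx1, Prdx2 and Cat had the largest differences at 1 day after the repeated exposure, and these rested on 1 animal. Prdx2 levels, lowest, median and highest, were 147, 209 and 507 CPM in air and 98.5, 202.5 and 4073 CPM in oil vapor, so only the top animal stood above the air range and 2 lay below it. The log2 difference was 1.94 (SE 0.77, adjusted p = 0.427), and without animal 43 it was -0.73 (SE 0.35, adjusted p = 0.359). Gpx1 levels were 177, 226 and 366 CPM in air and 150, 201 and 2222 CPM in oil vapor, where 3 animals lay below all air animals and 1 above. Its difference of 1.39 (SE 0.57) likewise became -0.42 (SE 0.19). Cat went from 1.02 (SE 0.41) to -0.09 (SE 0.12). Alas2 levels in these groups were 344, 660 and 2119 CPM in air and 71.7, 683 and 19529 CPM in oil vapor. At 1 day after the single exposure Prdx2 differed by 0.34 (SE 0.49) and, without animal 5, by -0.72 (SE 0.35), and no member was called either way.

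At 28 days, Gpx1 and Prdx2 were lower in oil vapor in both schedules without passing the test. After the single exposure Gpx1 levels were 203, 268 and 468 CPM in air and 132, 155 and 214 CPM in oil vapor, and 5 of the 6 exposed rats were below the whole air range. The log2 difference was -0.90 (SE 0.32, adjusted p = 0.468), and it was called without animal 5, an animal of neither group (adjusted p = 0.0441, 0.462% of genes called). Prdx2 levels were 174, 269 and 769 CPM in air and 92.2, 139 and 202 CPM in oil vapor, again with 5 of 6 below the air range, and differed by -1.33 (SE 0.51, adjusted p = 0.498). After the repeated exposure Gpx1 levels were 217, 284 and 386 CPM in air and 149, 162 and 243 CPM in oil vapor, and differed by -0.74 (SE 0.56, adjusted p = 0.980). Prdx2 differed by -1.18 (SE 0.76, adjusted p = 0.980). Alas2 moved beside them, at medians of 1048 CPM in air and 281 CPM in oil vapor after the single exposure and 1101 and 311 CPM after the repeated one. With log2 Alas2 as a covariate the Gpx1 differences were 0.09 (SE 0.14) and 0.45 (SE 0.25) and the Prdx2 differences 0.31 (SE 0.17) and 0.51 (SE 0.22), none of them called. These fits take 1 slope common to the groups, whereas both transcripts flatten where Alas2 is low, as in the oil vapor groups here. How far this set the adjusted values was not tested. The values of both schedules are not separate evidence, since their Alas2 counts run in step.

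Sod2, the mitochondrial manganese enzyme, had a log2 difference of -0.31 (SE 0.21) at 28 days after the repeated exposure, which did not pass (adjusted p = 0.980). Its levels were 106, 115 and 132 CPM in air and 83.3, 95.7 and 107 CPM in oil vapor, where 5 of 6 fell short of the lowest air value. When only these 12 libraries were fitted, Sod2 was called (adjusted p = 0.0257) together with Gpx1 (0.0246) and Prdx2 (0.0354), where 0.948% of genes were called. Without animals 43 and 44, Sod2 alone was called (adjusted p = 0.0385, 0.513% of genes). With log2 Alas2 as a covariate, again with 1 common slope, the Sod2 difference was 0.03 (SE 0.16). The single exposure gave -0.15 (SE 0.09) at that time.

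**Figure D5:**
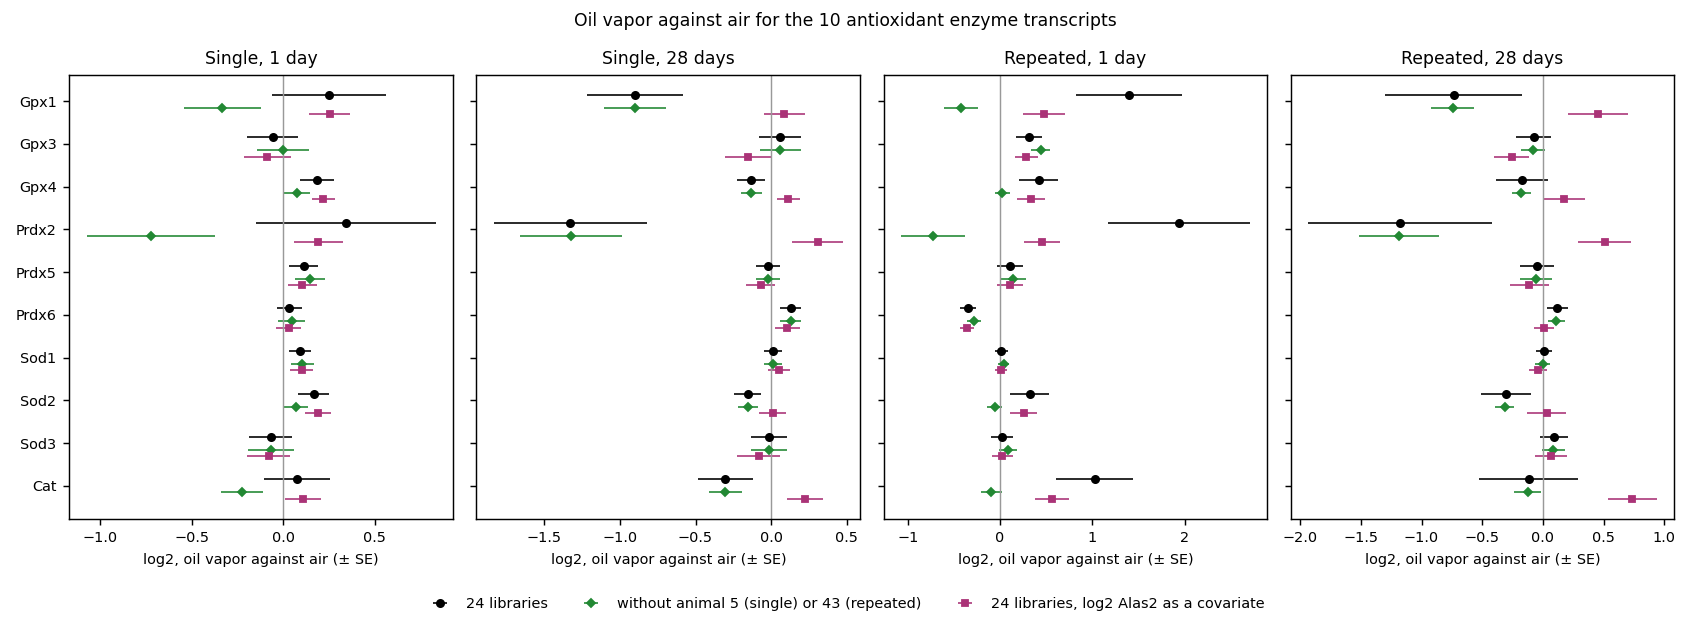
Log2 difference of oil vapor against air (bars ± SE) for the 10 members in the 4 comparisons, from all 24 libraries of the schedule (the horizontal scale differs by panel), without the library richest in red cell transcripts, and with log2 Alas2 as a covariate. At 1 day after the repeated exposure Prdx2 moves from 1.94 to -0.73 without animal 43, and at 28 days after the single exposure from -1.33 to 0.31 with the covariate, while Sod1 and Sod3 lie within 0.09 of 0 in the fit of all libraries.

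The remaining members were not called between oil vapor and air either. Sod1, the copper and zinc enzyme of the cytosol, differed by 0.01 to 0.09 in the 4 comparisons, with an SE of at most 0.07. Sod3, the extracellular form, differed by -0.07 to 0.09 (SE at most 0.12), and Prdx5, a peroxiredoxin of mitochondria and peroxisomes, by -0.05 to 0.11 (SE at most 0.14). Gpx4 differed by -0.17 to 0.42, the last value, at 1 day after the repeated exposure, being 0.03 (SE 0.08) without animal 43. Gpx3 was 0.31 higher in that comparison (SE 0.14, adjusted p = 0.511) and 0.44 without animal 43 (SE 0.10, adjusted p = 0.0617), with 4 of 6 oil vapor animals above the air range and 1, animal 43, below it.

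Oil vapor called no gene of the wider antioxidant lists either. Of 23 other glutathione and thioredoxin genes, 16, 8, 13 and 10 were higher in oil vapor at 1 and 28 days after the single and at 1 and 28 days after the repeated exposure, with medians of 0.06, -0.02, 0.06 and -0.03 beside 0.01, 0.01, 0.02 and 0.01 for all genes. The smallest p at 1 day after the single exposure belonged to Txnip, the thioredoxin-binding protein, at -0.21 (SE 0.06, adjusted p = 0.250), and next came Srxn1, which repairs overoxidised peroxiredoxins, at 0.74 (SE 0.32, adjusted p = 0.459). At 28 days after it they were Glrx5 at -1.66 (adjusted p = 0.433) and Txn2 at -0.39 (adjusted p = 0.468). After the repeated exposure they were Glrx5 at 1.86 (adjusted p = 0.459) and Gclm at 1.18 (adjusted p = 0.512) at 1 day, both of which also followed Alas2, and Glrx5 at -1.51 and Gclc at 0.14 at 28 days (adjusted p = 0.980 for each). Among 8 partner genes the smallest p values were those of Ccs at 0.21 (adjusted p = 0.525) and Nfe2l2, the regulator of antioxidant genes, at -0.11 (adjusted p = 0.543), both at 1 day after the repeated exposure.

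Over time after exposure, 1 member was called. Between 1 and 28 days in single oil vapor, Prdx6 rose by 0.24 in log2 units (SE 0.07, adjusted p = 0.0282), the 1 member called where 9.43% of genes were and 4.45% were called higher. Its levels were 324, 357 and 387 CPM at 1 day and 372, 430 and 469 CPM at 28 days, and 5 of 6 later animals lay above all earlier ones. The call was lost with log2 Alas2 as a covariate (0.23, adjusted p = 0.0647), with the heart and liver marker sums as covariates (0.16, adjusted p = 0.146), and in the fit of 48 libraries (adjusted p = 0.0516). Leaving out any 1 of animals 5, 16, 27 or 31 also ended it, at adjusted p values of 0.0541 to 0.0640. Other lists moved beside it. Alveolar epithelial markers summed to 17016 to 20418 CPM at 1 day and 18063 to 21638 CPM at 28 days, with 2 of 15 called higher. Liver markers summed to 227 to 751 CPM and then to 219 to 284 CPM, with 6 of 9 called lower, and 7 of 18 erythroid genes were called lower too. Beyond the values with the covariates, their part in the Prdx6 difference was not tested. In the single air groups Prdx6 differed in the same direction by 0.15 (SE 0.07, adjusted p = 0.315), where 3.25% of genes were called and no member was. Alas2 fell over that time in single oil vapor by 2.34 (SE 0.74, adjusted p = 0.0457), and Gpx1 and Prdx2 differed by -0.94 (adjusted p = 0.0620) and -1.40 (adjusted p = 0.0799). Alas2 levels were 107, 592 and 5699 CPM at 1 day and 85.8, 281 and 520 CPM at 28 days. The 5699 CPM was animal 5, and the next highest at 1 day was 628 CPM. The Alas2 difference and the erythroid calls without animal 5 are not given here. Over single animals left out, the Prdx2 difference ran from -1.57 to -0.33. Gpx1 was called without animal 7 (-1.06, adjusted p = 0.0405) or 13 (-1.04, adjusted p = 0.048), and without animal 5 its difference was -0.35.

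In repeated air, every rat taken at 28 days had more Gpx3 than every rat taken at 1 day, the groups being different animals. Its levels were 223, 304 and 354 CPM at 1 day and 365, 421 and 461 CPM at 28 days, and such a separation upward was seen in 0.66% of genes. The log2 difference was 0.55 (SE 0.14) and did not pass (edgeR adjusted p = 0.119, with 0.327% of genes called). It was called with DESeq2 (adjusted p = 0.0164, 1.3% of genes called) and with log2 Alas2 as a covariate (0.0262, 0.487%). It was also called without animal 43 (0.00421, 1.42%) and without animals 43 and 44 (0.00336, 2.35%), which are in neither group. Liver marker genes summed to 240 to 342 CPM at 1 day and 259 to 1501 CPM at 28 days, and alveolar epithelial markers to 17477 to 21570 and 19617 to 22565 CPM. Their part in the Gpx3 difference was not tested. Single air gave medians of 354 and 385 CPM for Gpx3, with overlapping ranges.

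In repeated oil vapor, Prdx6 was 0.33 higher at 28 days (SE 0.09) without passing (adjusted p = 0.0795, where 0.34% of genes were called), from 187, 357 and 402 CPM to 378, 412.5 and 516 CPM. DESeq2 called it (adjusted p = 0.0172) with 2.11% of genes, and so did edgeR without animal 47 (0.37, adjusted p = 0.0491). Gpx1 and Prdx2 differed by -1.89 (SE 0.58, adjusted p = 0.127) and -2.90 (SE 0.80, adjusted p = 0.0920), values that were -0.08 and -0.25 without animal 43. In the fit of 48 libraries Prdx6, Gpx1 and Prdx2 were called, among 2.81% of genes. Repeated air gave -0.14 (SE 0.08) for Prdx6 over the same time. The difference between oil vapor and air in their change over time was 0.46 for Prdx6 (SE 0.12), with an adjusted p of 0.289 by edgeR, where 0.00666% of genes were called and no member was, and of 0.0458 by DESeq2, which called 0.319%. After the single exposure no member was called for that difference, nor was any gene (0%), with 1160 genes at an unadjusted p below 0.05.

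Air controls of both schedules differed in Prdx6 as well. At 1 day Prdx6 was higher in repeated than in single air by 0.30 (SE 0.08, adjusted p = 0.0196), the 1 member called where 3.76% of genes were and 1.15% were called higher. Levels were 287, 366 and 394 CPM in single air and 422, 431 and 460 CPM in repeated air, so these groups did not overlap, as was so in this direction for 1.81% of genes. The call was lost when 1 of 3 animals was left out (3, 4 or 40), with an adjusted p of up to 0.0755. Schedule, table and the age of the rats cannot be told apart here. The air group of the repeated schedule is also the control against which the Prdx6 values in oil vapor at 1 day were set. In oil vapor itself, Prdx6 medians were 357 CPM in both schedules at 1 day. At 28 days no member was called between the air groups (0.0457% of genes were), and no member was called for a difference between the schedules' oil vapor effects at 1 day (0.0457% of genes called) or at 28 days (0%, with 796 genes at an unadjusted p below 0.05).

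Among the wider antioxidant genes, calls came from time and schedule. Gpx7, a peroxidase of the endoplasmic reticulum, fell between 1 and 28 days in single air by 0.54 (SE 0.11, adjusted p = 0.00478) and in single oil vapor by 0.55 (SE 0.11, adjusted p = 0.00136). Txnip rose over the same time by 0.31 in air and 0.64 in oil vapor. In single oil vapor Txn1, the cytosolic thioredoxin, fell by 0.30 and Prdx1, another cytosolic peroxiredoxin, fell by 0.26 (adjusted p = 0.0245). That made 2 of 23 called in air, where 3.25% of all genes were, and 4 of 23 in oil vapor, where 9.43% were. Between air groups at 1 day, where 3.76% of all genes were called, Txnip was higher (0.44) and Gpx7 lower (-0.45) after the repeated than after the single schedule, and Sepsecs, which helps make selenocysteine, was higher by 0.21 (adjusted p = 0.0476). No gene of either list was called over time in the repeated schedule.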

How the data were processed

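Total RNA from a piece of lung of each rat went into a stranded, ribosome-depleted library without molecular identifiers, per the labels' protocols. The submitters' processing notes name HISAT2 2.1.0 and HTSeq 0.6.1, with Trimmomatic 0.35, bcl2fastq 2.19, SAMtools 1.8 and build Rnor_6.0, and the strand setting of the counting is not given in the sources used here. The authors deposited raw counts per gene symbol in 2 tables of 24 columns, 1 per schedule. The 10 members matched by symbol, and groups came from the titles; animal 32's description names the other table, and its title was followed.

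CPM were computed on library totals (1.54 to 7.16 M counts), where 3 counts correspond to 0.419 to 1.95 CPM; precision is limited by counting in the shallowest library and by the spread between 6 animals elsewhere. Group means were fitted with edgeR 4.0.16 (R 4.3.3) after TMM and filterByExpr, over the 24 libraries of a schedule, or over 48 for schedule contrasts and for the slope on log2(Alas2 CPM + 1). Tests were two-sided, and each SE was derived from the F of the test. DESeq2 1.42.0, other scalings, filters, covariates and leaving out animals were tried, and the scripts were tested on simulated data. Members, lists and the rule for named genes (all members; list genes called, or else the 2 with the smallest p; the 3 genes most like each member) were chosen with earlier results of these data known. From the lists, Bpgm, Fech, Hemgn and the genes named for their slopes were chosen after their values were seen.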

Additional observations from a re-analysis of the deposited data

Results flagged for a closer look

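Among 88 sets of 6 animals (10 members and Alas2 in 8 groups), 16 held an animal far from the other 5 for the range of its group, and 13 of these came from animals 5 and 43. The cut-off used flags about 1 in 20 sets of independent, normally distributed values. The genes of a group share the same 6 animals, so the sets are not independent. The number of flags was not tested against chance.

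In single oil vapor at 1 day, animal 5 was far above its group in Gpx1 (773 CPM), Gpx4 (158 CPM), Prdx2 (1242 CPM), Sod2 (136 CPM), Cat (494 CPM) and Alas2 (5699 CPM). In repeated oil vapor at 1 day, animal 43 was far above its group in Gpx1 (2222 CPM), Gpx4 (250 CPM), Prdx2 (4073 CPM), Sod2 (231 CPM), Cat (1259 CPM) and Alas2 (19529 CPM), and far below it in Gpx3 (132 CPM). Both animals had the largest erythroid shares of counts, 1.63% and 5.03%. The TMM factor of animal 43 was 0.714, so its levels, Gpx3 included, are higher on that scale. The Gpx4 and Sod2 counts of animal 43 were 384 and 355, against 3416 of Gpx1.

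Animal 23, in single air at 28 days, was far above its group in Prdx2 (769 CPM) and Alas2 (3445 CPM). Animal 28, in single oil vapor at 28 days, was far above its group in Gpx1 (214 CPM), at the highest Alas2 level there (520 CPM).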

How the results depend on the processing

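Each count of members called (for slopes, the positive ones) was computed again under the settings below. Counts of this kind not mentioned did not move by more than 1.5 times under the settings run for them. No paired analysis was possible because animal numbers are not shared between groups.

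Between 1 and 28 days in single oil vapor, the 1 call became 0 with log2 Alas2 or heart and liver sums as covariates, without animal 5 and in the fit of 48 libraries. In repeated air it went from 0 to 1 (Gpx3) with DESeq2, with Alas2 as a covariate, without animal 43 and without animals 43 and 44. In repeated oil vapor it went from 0 to 1 with DESeq2 (Prdx6) and to 3 in the fit of 48 libraries. For oil vapor against air, 0 became 1 at 28 days after the single exposure without animal 5 (Gpx1), 1 at 1 day after the repeated exposure with DESeq2 (Prdx6), and at 28 days after it 3 with only the 12 libraries compared and 1 without animals 43 and 44 (Sod2). DESeq2 also called 1 interaction of oil vapor with time after the repeated exposure (Prdx6). Positive slopes on Alas2 went from 5 to 3 without animal 43, without animals 5 and 43, and without the richest animal of each group. The 1 negative slope, of Gpx3, was not called under these settings either, nor in each schedule alone, with heart and liver sums as covariates, or without animal 5 or 9. Leaving out each animal in turn gave 0 to 2 calls over time in single oil vapor, 0 to 1 in repeated oil vapor, 0 to 1 between air groups at 1 day, and 3 to 5 slopes.

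Of the slopes and the differences between groups with an unadjusted p below 0.05, these changed sign. With Alas2 as a covariate, Gpx1 and Prdx2 at 28 days after the single exposure became 0.088 and 0.31, Prdx2 over time in single oil vapor 0.026 and Cat over time in repeated oil vapor 0.023. With heart and liver sums, Gpx1 and Prdx2 at 1 day after the repeated exposure became -0.27 each, and Gpx1 and Sod2 over time in repeated oil vapor 0.00011 and 0.028. Without animal 43, Gpx1, Prdx2 and Cat at 1 day after the repeated exposure became -0.42, -0.73 and -0.094, and Cat over time in repeated oil vapor 0.0010; without animals 43 and 44 these were -0.38, -0.83, -0.15 and 0.055. The Sod2 slope became -0.00020 without the richest animals. Over single animals left out, the ranges were -0.42 to 1.61 for Gpx1, -0.73 to 2.18 for Prdx2 and -0.094 to 1.19 for Cat at 1 day after the repeated exposure, and -1.27 to 0.0010 for Cat over time. Differences with larger p values changed sign too, and not all are listed: with Alas2 as a covariate, Gpx1, Prdx2, Sod2 and Cat at 28 days after the repeated exposure became 0.45, 0.51, 0.031 and 0.74, and without animal 5, Gpx1 and Prdx2 at 1 day after the single exposure became -0.33 and -0.72. Cat at 28 days after the repeated exposure had unadjusted medians of 220 CPM in air and 215 CPM in oil vapor. The cause of these shifts was not tested. The settings without animals 43 and 44, without the richest animals, and without animals 5 and 43 for schedule contrasts were added after the data were seen.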

Other observations

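The summed level of the 10 members ran from 1573 to 8470 CPM, with a median of 1805 CPM, and both ends lay in repeated oil vapor at 1 day. The 23 other glutathione and thioredoxin genes summed to 1491 to 2850 CPM (median 1924 CPM), again highest in animal 43, and the 9 measured partner genes to 313 to 410 CPM.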
